A study of Mus musculus with 4 samples.

Results

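The genes described here are 10 genes of arterial Notch signalling and haemogenic endothelium, taken by gene symbol from 49997 annotated mouse genes. They are the receptors Notch1 and Notch4, the ligands Dll4, Jag1 and Jag2, the target transcription factors Hey1 and Hey2, and the arterial and haemogenic endothelial genes Efnb2, Sox17 and Gja5. All 10 were found in the files, and all 10 passed the filter on low counts. RNA was measured in 4 libraries of C57BL/6J mouse embryo tissue, the aorta-gonad-mesonephros region (AGM) grown as explants, the embryonic site where definitive haematopoietic stem cells arise. Explants of E10.5 and E11.5, per the growth protocol, or of E10.5 alone, per the series design, were kept for 48 hours in MyeloCult medium with hydrocortisone. The untreated group and the CCCP group have 2 libraries each, and the CCCP group received 5 µM CCCP, a protonophore that dissipates the mitochondrial membrane potential. The labels call the controls untreated and name no vehicle, and the number of embryos behind each library is not given in the sources used here.

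In Notch signalling, a ligand on one cell binds a receptor on its neighbour, the receptor is cleaved first by ADAM proteases and then by gamma-secretase, and the freed intracellular domain joins RBPJ and Mastermind proteins on DNA to switch on targets such as the Hey and Hes repressors. In the embryonic aorta, Dll4, Notch1 and Notch4 act in endothelium to set arterial identity, of which ephrin-B2 (Efnb2), connexin 40 (Gja5) and the Hey factors are classic markers. Blood stem cells emerge from haemogenic endothelium in the wall of this artery, a process known to need Notch1, Jag1 and Sox17. The study asked, per its design text, what part mitochondrial activity has in the maturation of embryonic blood stem cells, and the comparison sets explants kept with CCCP against untreated explants.

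Hey2, a target known to be bound directly by the Notch complex, had the highest log2 fold change of the 10 genes, and Jag1 had the lowest. Their promoters are shown because the genes lay at opposite ends of the list and differ in whether the RBPJ letters are present. The pair was thus chosen on these values, and a link between the letters and the fold changes was not tested. Neither gene was called. With the trend with exon length removed, as described below, Jag2 was highest at 0.24 and Gja5 lowest at -0.25. Each sequence runs from 250 bases before to 50 bases after the annotated gene start, 5′ to 3′ on the strand of the gene, from RefSeq on build GRCm38.p6. Capitals mark GTGGGAA, a form of the RBPJ recognition sequence, or its reverse complement TTCCCAC.
Hey2, chr10:30842734-30843033, minus strand: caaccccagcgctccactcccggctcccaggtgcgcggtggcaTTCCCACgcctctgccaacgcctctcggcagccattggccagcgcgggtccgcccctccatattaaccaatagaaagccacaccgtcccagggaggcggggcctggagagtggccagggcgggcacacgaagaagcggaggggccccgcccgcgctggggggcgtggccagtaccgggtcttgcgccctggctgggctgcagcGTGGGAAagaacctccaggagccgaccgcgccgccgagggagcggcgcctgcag
Jag1, chr2:137116471-137116770, minus strand: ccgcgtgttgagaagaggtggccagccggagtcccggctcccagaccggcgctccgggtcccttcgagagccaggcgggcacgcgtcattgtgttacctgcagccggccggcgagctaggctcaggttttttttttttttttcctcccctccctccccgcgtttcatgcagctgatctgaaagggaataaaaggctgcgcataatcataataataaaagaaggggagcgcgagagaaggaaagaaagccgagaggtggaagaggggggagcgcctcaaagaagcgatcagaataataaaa

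The Hey2 window held 2 matches to GTGGGAA. The reverse-strand match spans bases -207 to -201 and the forward match bases -4 to 3 around the gene start, where base 1 is the first transcribed base. Promoters were found for 8 of the 10 genes. Hey1, the other target gene, and Sox17 had no promoter entry and were not searched. Hey2 was the 1 gene among the 8 with a match, searched on both strands. Over 32851 promoters of the same length, 6.38% held the same letters. The shorter core TGGGAA, which lies within those matches, occurred in 25.6% of all promoters and, among the 8 genes, again in Hey2 only. The E-box CACGTG, a sequence bound by Hey and other basic helix-loop-helix proteins, was present in none of the 8 and in 7.15% of all promoters. A match is a description of letters in these windows and not a site shown to be bound. The Jag1 window was less rich in G and C, at 55.7% against 72.0% for Hey2.

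The libraries held 37360968 to 48827826 counted reads, and the 10 genes had from 255 to 11453 counts per library, with a median of 2241. The labels give the cell type as embryonic haematopoietic stem cells, and the series design speaks of c-kit+ stem cells, but the extraction protocol describes RNA of explants. Mesenchymal marker transcripts summed to between 3248 and 5608 CPM (counts scaled to library size) over 10 genes, against 566 to 589 CPM for 20 haemogenic endothelial genes. Such sums rest most on the highest genes, with Col3a1 alone at 1306 to 2303 CPM, and do not measure shares of cells. All 10 mesenchymal genes were counted in every library, and of the 20 haemogenic genes Etv2 had no count in untreated replicate 1. A change in a bulk level can therefore come from fewer cells of a type or from less RNA per cell, which cannot be told apart here. Hepatic marker transcripts were far lower with CCCP, at 1404 and 839 CPM in untreated libraries against 6.26 and 66.3 CPM, and the part of this difference in the results below was not tested.

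No gene of the 10 passed the test. edgeR (quasi-likelihood, p-values adjusted by Benjamini-Hochberg over 19837 genes) called 0 of the 10, and adjusted p-values ran from 0.388 for Jag1 to 0.995 for Notch4. The same test called 0 of all genes (0%), so the absence of a call is shared with every other gene tested. Before adjustment, 0 of the 10 had p under 0.05, beside 14.6% of all genes. DESeq2 called 0 of the 10, beside 2.99% of all genes, and edgeR without a filter on low counts also 0, beside 3.43%. Log2 fold changes (CCCP minus untreated) lay between -0.31 and 0.22. Of the 10, 3 were above 0 and 7 below, where 9751 of all 19837 genes were above 0. With the trend with exon length removed, as described below, Dll4 and Gja5 alone were below 0. Without that removal, the median of the 10 was -0.073, against -0.008 for all genes. Standard errors of 0.111 to 0.335 leave room for differences that 2 libraries per group could not show. Both CCCP libraries lay on one side of both untreated libraries for 5 of the 10 genes, 2 higher (Jag2, Hey2) and 3 lower (Notch1, Jag1, Efnb2), close to the 48.8% of all genes that did so (24% higher, 24.8% lower). Exact permutation of 4 libraries in 2 groups cannot give a single gene a two-sided p-value under 0.33, and none is printed.

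**Figure D1:**
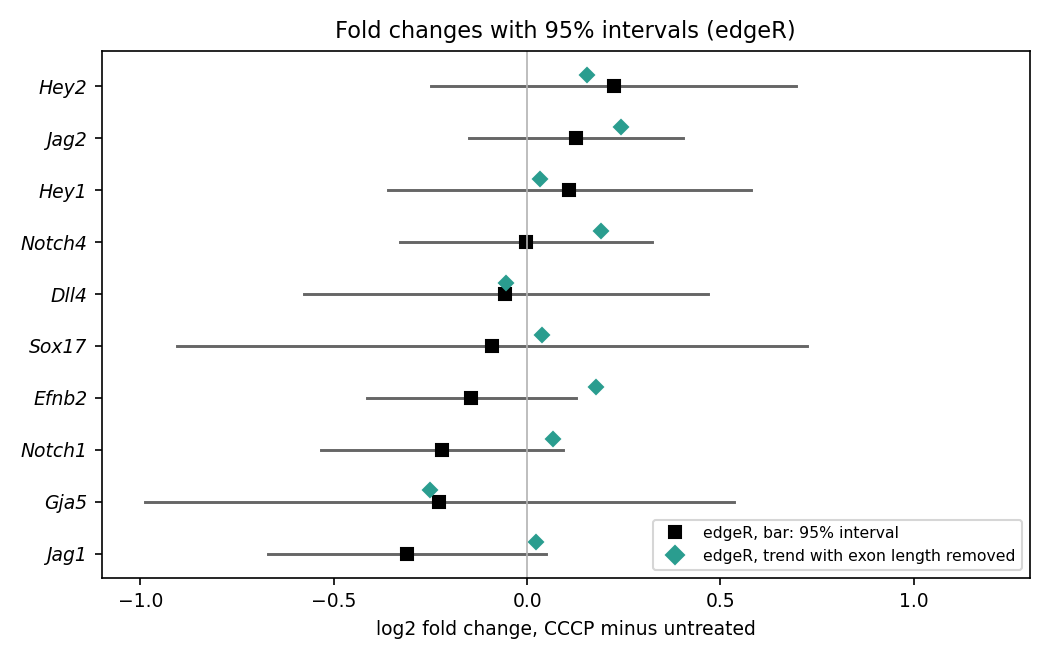
Log2 fold change of each gene, CCCP minus untreated, on the x axis, with genes on the y axis ordered by it. Black squares are edgeR estimates with 95% intervals (n = 2 libraries per group), green diamonds are the estimates after the trend with exon length was removed. Every interval includes 0.

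Of the receptors, Notch1 was lower in both CCCP libraries and Notch4 was level. Notch1 (chromosome 2, 26457902 to 26503822, minus strand), the receptor needed for arterial and blood stem cell fate, had 229 and 242 CPM in untreated libraries 1 and 2 and 188 and 217 CPM in CCCP libraries 1 and 2. Both CCCP libraries were below both untreated libraries, and the closest 2 libraries of different groups were untreated 1 and CCCP 2. This is a log2 fold change of -0.22 (standard error 0.128, adjusted p-value 0.467 in edgeR). With each library left out in turn it stayed between -0.33 (without CCCP replicate 2) and -0.12 (without CCCP replicate 1), but it was 0.068 once a trend with exon length, described below, was removed. Exons of Notch1 share 11.3% of their bases with 0610009E02Rik on the opposite strand, and since strand was not used in the counting, reads in that stretch could not be assigned to either gene.

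Notch4 (chromosome 17, 34564286 to 34588543, plus strand), a receptor largely restricted to endothelium, had 60.0 and 72.5 CPM in untreated libraries and 67.6 and 64.7 CPM with CCCP. Both CCCP values lay between the untreated ones, and the log2 fold change was -0.003 with a 95% interval from -0.33 to 0.32. The annotation lists Notch4 on 4 sequences, chromosome 17 and alternate contigs. The deposited exon length of 26823 bases is the sum over them, against 7014 bases on chromosome 17 alone, which is the length used here. Reads that align equally well to several of these copies were not counted, so the level of Notch4 may be understated if the contigs were part of the alignment.

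Among ligands, the 2 Jagged genes had opposite signs and Dll4 was uneven among untreated libraries. Jag1 (chromosome 2, 137081451 to 137116520, minus strand), a ligand on aortic endothelium and on the cells around it, had 58.7 and 70.9 CPM in untreated libraries and 48.3 and 56.2 CPM with CCCP. The groups did not overlap, with untreated 1 only slightly above CCCP 2. The log2 fold change of -0.31 (standard error 0.148, adjusted p-value 0.388 in edgeR) had a 95% interval from -0.67 to 0.05. It ranged from -0.43 with untreated replicate 1 left out to -0.15 with untreated replicate 2 left out, and it was 0.024 once the trend with exon length described below was removed. Jag2 (chromosome 12, 112907803 to 112929812, minus strand), the other Jagged ligand, had 48.5 and 51.5 CPM in untreated libraries and 55.1 and 54.1 CPM with CCCP. Its CCCP libraries were both higher, by a small step, and its log2 fold change was 0.13 (standard error 0.113, adjusted p-value 0.621 in edgeR).

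Dll4 (chromosome 2, 119325784 to 119335666, plus strand), the arterial endothelial ligand, had 41.2 and 64.0 CPM in untreated libraries and 48.8 and 52.3 CPM with CCCP. The untreated libraries were 0.64 log2 units apart and enclosed both CCCP libraries, which were 0.10 apart. Its log2 fold change of -0.056 became -0.33 when untreated replicate 1 was left out and 0.32 when untreated replicate 2 was, so its direction depended on which untreated library was kept. The exons of Dll4 share 6.29% of their bases with Gm14207 on the opposite strand.

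Within each library, the log2 ratio of Jag2 to Jag1 (length-scaled values) was 0.88 and 0.70 in untreated libraries and 1.35 and 1.10 with CCCP. The ratio was higher in both CCCP libraries, by 0.44 on average. The exons of Jag1, at 11719 bases, are longer than those of Jag2, at 5246 bases, and with the trend with exon length removed the mean difference was 0.21 and the groups overlapped. The log2 ratio of Dll4 to Notch1 ran from -1.02 to -0.46 among untreated libraries and from -0.59 to -0.48 among CCCP libraries, which overlapped.

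The 2 target genes were both above 0 in fold change, with different support. Hey2 (chromosome 10, 30832359 to 30842783, minus strand), a repressor of venous fate in arterial endothelium, had 11.9 and 15.2 CPM in untreated libraries and 16.1 and 15.6 CPM with CCCP. Untreated 1 was the low library, and untreated 2 was nearly level with CCCP 2. The log2 fold change was 0.22 (standard error 0.194, adjusted p-value 0.611 in edgeR). Leaving out untreated replicate 1 gave 0.066, and leaving out untreated replicate 2 gave 0.43. Hey1 (chromosome 3, 8663359 to 8667038, minus strand), the related target, had 42.5 and 57.3 CPM in untreated libraries and 47.4 and 60.2 CPM with CCCP. The groups overlapped, replicate 2 was the higher library in each group, and the log2 fold change of 0.11 was -0.085 without untreated replicate 1 and -0.074 without CCCP replicate 2. A predicted transcript on the same strand, LOC115489673, shares 4.76% of the exon bases of Hey1.

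Efnb2 (chromosome 8, 8617235 to 8661242, minus strand), which encodes the arterial ligand ephrin-B2, had 183 and 191 CPM in untreated libraries and 165 and 172 CPM with CCCP. Libraries of a group were close, 0.063 log2 units apart without CCCP and 0.058 with it, and both CCCP libraries were lower. The log2 fold change of -0.14 (standard error 0.111) had an adjusted p-value of 0.564 in edgeR and lay between -0.17 and -0.094 with each library left out, but was 0.18 with the trend with exon length removed. Its receptor Ephb4, a venous marker, had 173 and 161 CPM in untreated libraries and 216 and 195 CPM with CCCP. Ephb4 was higher in both CCCP libraries, with a log2 fold change of 0.30 and an adjusted p-value of 0.34 in edgeR. The log2 ratio of Efnb2 to Ephb4 (length-scaled values) was therefore -1.25 and -1.08 in untreated libraries and -1.71 and -1.51 with CCCP, a mean difference of -0.44 without overlap. With the trend with exon length removed the difference was -0.18 and the groups overlapped.

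Sox17 (chromosome 1, 4490928 to 4497426, minus strand), a transcription factor of arterial and haemogenic endothelium, had 8.33 and 16.0 CPM in untreated libraries and 10.1 and 12.7 CPM with CCCP. The untreated libraries were 0.94 log2 units apart, more than any other gene of the 10 in either group, and enclosed both CCCP libraries. The log2 fold change of -0.091 became -0.48 when untreated replicate 1 was left out, 0.47 for untreated replicate 2 and 0.071 for CCCP replicate 1. Gja5 (chromosome 3, 97032402 to 97053634, plus strand), the arterial gap junction protein connexin 40, had 10.1 and 12.8 CPM in untreated libraries and 12.4 and 7.03 CPM with CCCP. CCCP replicate 2, on 255 counts, was the low library, while CCCP replicate 1 lay within the untreated range. The log2 fold change of -0.23 was -0.70 without CCCP replicate 1 and 0.12 without CCCP replicate 2. Dropping untreated replicate 2 brought the Gja5 value close to level, at -0.024, whereas dropping untreated replicate 1 took it to -0.38. Among these fits its sign changed only in the absence of CCCP replicate 2, but its size depended on other libraries as well.

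**Figure D2:**
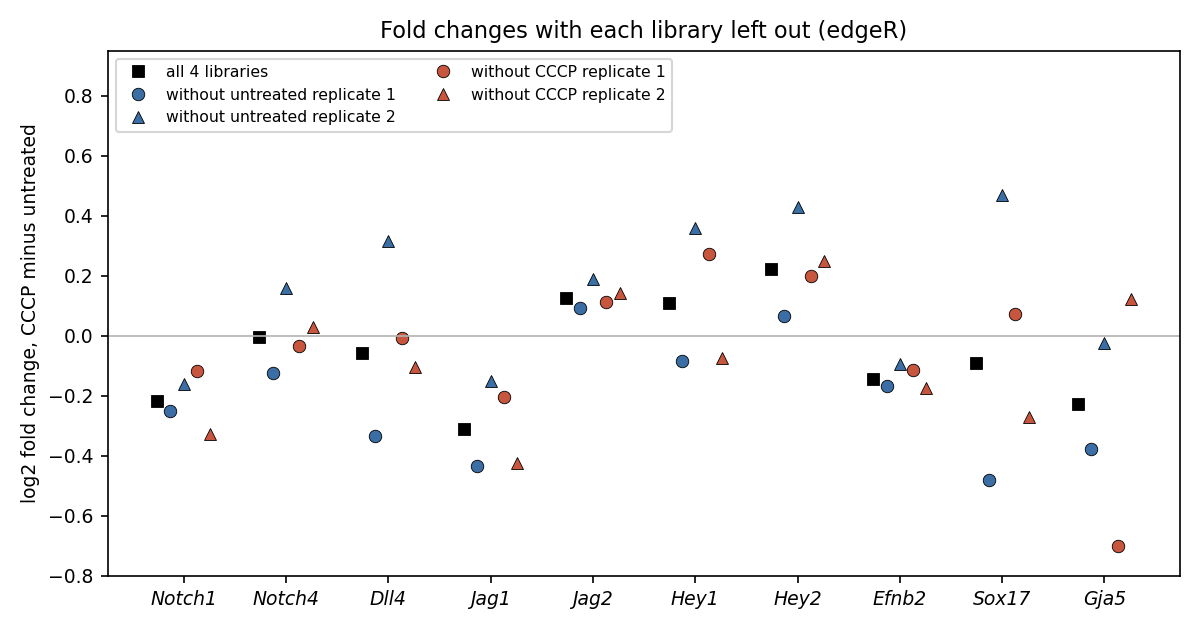
Log2 fold change of each gene, CCCP minus untreated, on the y axis, for all 4 libraries (black squares) and with each library left out in turn (blue for untreated, red for CCCP, circles for replicate 1 and triangles for replicate 2). Notch1, Jag1, Jag2, Hey2 and Efnb2 kept their side of 0 in all 4 cases, while Notch4, Dll4, Hey1, Sox17 and Gja5 did not.

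Per exon length (TPM, counts per kilobase of exon scaled to a common library sum), Notch1 had the highest level of the 10, with a mean of 60.6 TPM over 4 libraries. Hey1 followed at 55.6 TPM, Efnb2 at 42.7 TPM and Dll4 at 38.9 TPM, and each of these 4 overlapped its neighbour in the order across libraries. Jag2 (26.0 TPM) and Notch4 (24.7 TPM) formed the next step and overlapped each other, and neither reached the range of Dll4, whose lowest library had 35.4 TPM. Hey2 (15.1 TPM) and Jag1 (13.1 TPM) overlapped in turn. Gja5 (8.76 TPM) and Sox17 (5.33 TPM) were lowest, and Gja5 overlapped both Jag1 and Sox17. Within each library Hey1 exceeded Hey2, by a log2 ratio of 1.62 to 2.02, and the groups overlapped in it. The order depends on the length used. For the 10 genes alone, mean TPM was also converted to the longest coding transcript of GENCODE (4793 against 10924 bases for Efnb2). Counts still came from all merged exons, and the converted values were not scaled again to a common library sum, so they are not TPM. In these values Efnb2 ranked first at 97.3, and Jag1 at 27.4 stood above Jag2 and Notch4. On the TPM scale the groups of Jag2 and Hey2 overlapped, while Notch1, Notch4, Jag1 and Efnb2 were lower in both CCCP libraries. These are 4 of the 10, beside 38.1% of all genes that were lower on this scale (47% without overlap).

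**Figure D3:**
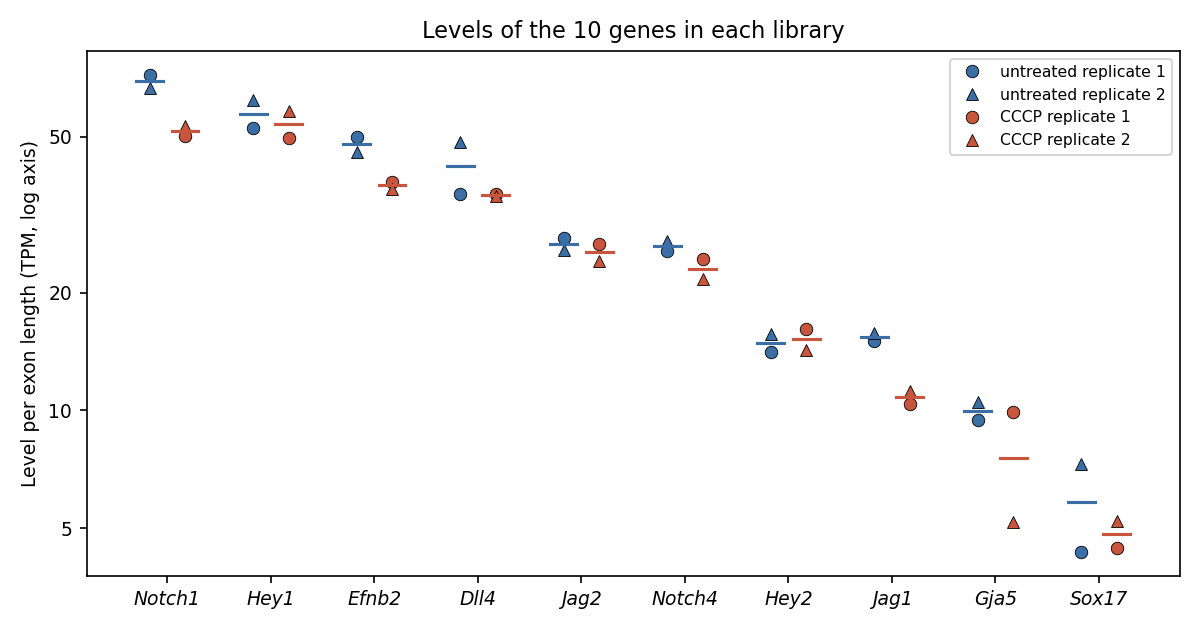
Level of each gene per exon length (TPM, log axis) in each library, with genes on the x axis ordered by mean level. Blue marks are untreated and red marks CCCP libraries, circles replicate 1 and triangles replicate 2, and short lines are group means. Notch1, Efnb2, Notch4 and Jag1 were lower in both CCCP libraries, as were 38.1% of all genes, and the spread within a group was widest for Sox17 (untreated) and Gja5 (CCCP).

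The 3 genes that were lower in both CCCP libraries on the CPM scale are the 3 with the longest exons of the 10: Jag1 with 11719 bases, Efnb2 with 10924 and Notch1 with 9489. All genes tested showed the same trend, from a median log2 fold change of 0.22 in the shortest of 10 length classes to -0.36 in the longest, to which these 3 belong. Notch1, at -0.22, Jag1, at -0.31, and Efnb2, at -0.14, were thus less negative than the median of their class. Hey1 and Hey2, at 0.11 and 0.22, belong to a class with a median of 0.12, and Jag2, at 0.13, to one with a median of -0.099. With the trend removed from each library, the log2 fold change was 0.068 for Notch1, 0.024 for Jag1 and 0.18 for Efnb2. Those of Hey2 and Jag2 were 0.16 and 0.24. Gja5 was then the lowest of the 10, at -0.25. Groups then did not overlap for 1 of the 10 genes, Jag2, with 45.0 and 51.1 CPM in untreated libraries and 56.4 and 57.3 CPM with CCCP, beside 45.6% of all genes (25.9% higher). On this scale untreated replicate 1 was the lowest library for 9 of the 10 genes, Gja5 being the exception. Notch1, for example, had 192 CPM in it, against 235 CPM in untreated replicate 2 and 204 and 244 CPM with CCCP. What the length trend reflects was not tested.

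**Figure D4:**
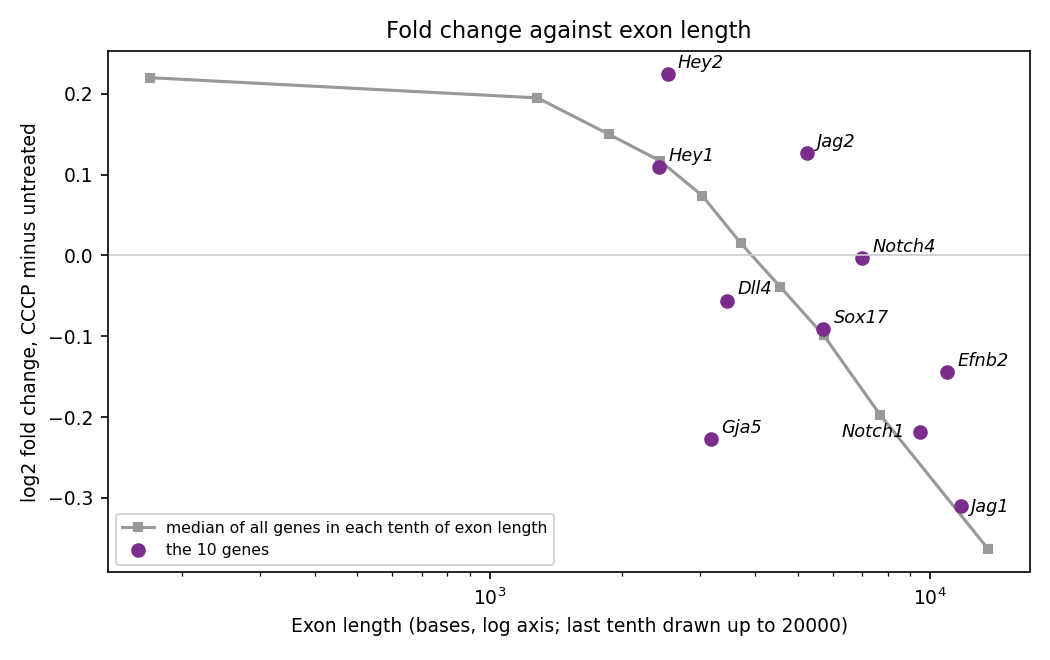
Log2 fold change (CCCP minus untreated, y axis) against exon length (bases, log x axis). Purple points are the 10 genes, and grey squares are medians of all 19837 genes in 10 classes of exon length with equal numbers of genes, drawn at the geometric middle of each class. Medians go from 0.22 to -0.36 as length grows, and Notch1, Jag1 and Efnb2 lie at the long end.

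Pan-endothelial genes were read beside the 10, since most of the 10 are expressed in endothelium. The mean log2 CPM of 18 such genes was 4.92 and 5.30 in untreated libraries and 4.98 and 4.95 with CCCP. Untreated replicate 2 was the high library, the groups overlapped, and the mean difference was -0.14. Their summed level was 757 and 969 CPM in untreated libraries and 795 and 776 CPM with CCCP. The same library was the highest for Notch1, Notch4, Dll4, Jag1, Efnb2, Sox17 and Gja5. No gene of the 18 was at 0 in any library, 11 were lower and 7 higher with CCCP, and edgeR called 0. Before adjustment, edgeR gave p under 0.05 for 4 lower and 0 higher genes, beside 14.6% of all genes. Groups did not overlap for 5 lower and 1 higher, beside 24.8% and 24% of all genes. Flt1, a VEGF receptor, had the smallest p-value among those lower (log2 fold change -0.59, edgeR adjusted p-value 0.223), and Plvap, a protein of endothelial diaphragms, among those higher (0.26, 0.498).

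Relative to the pan-endothelial mean of the same library, Hey2 stood at -1.34 and -1.37 log2 units in untreated libraries and at -0.97 and -0.99 with CCCP. Its libraries were nearly equal within each group on this scale, and the mean difference was 0.37. Jag2 stood at 0.69 and 0.39 without CCCP and at 0.80 and 0.81 with it, a difference of 0.27. Hey1 was higher by 0.25 and Notch4 by 0.14. In all, 4 of the 10 were higher in both CCCP libraries and 0 were lower, beside 32.3% of all genes that were higher and 12.3% that were lower on this scale (44.6% without overlap). Efnb2 differed by -0.005, Dll4 by 0.12, Sox17 by 0.11, Notch1 by -0.083, Gja5 by -0.14 and Jag1 by -0.17, all with overlap. After removal of the length trend, Notch4, Jag2 and Hey2 were again higher without overlap, as were Notch1 and Efnb2, while Hey1 overlapped. These are 5 of the 10 genes, beside 34.8% of all genes that were higher with both corrections (45.2% without overlap).

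**Figure D5:**
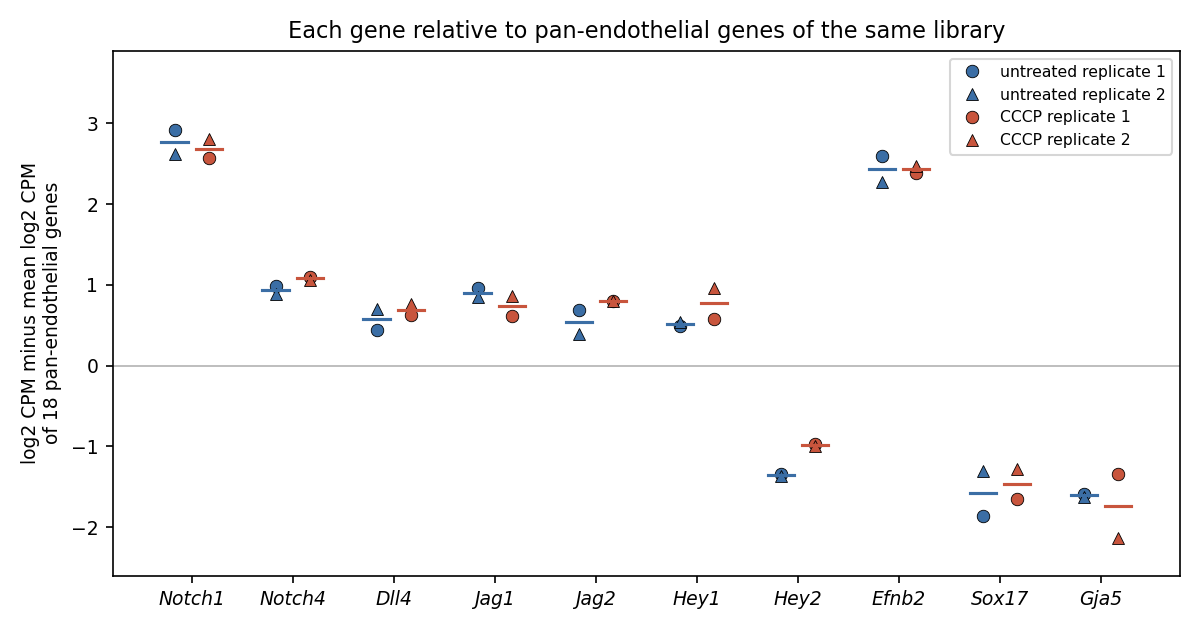
Log2 CPM of each gene minus the mean log2 CPM of 18 pan-endothelial genes in the same library (y axis), with genes on the x axis. Blue marks are untreated and red marks CCCP libraries, circles replicate 1 and triangles replicate 2, and short lines are group means. Notch4, Jag2, Hey1 and Hey2 were higher in both CCCP libraries, and the 2 libraries of each group nearly coincide for Hey2.

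The rest of the Notch pathway was read from 51 listed genes, of which 50 were tested. edgeR called 0 of the 50 and DESeq2 0. With CCCP 28 were higher and 22 lower, and the median log2 fold change was 0.015. Before adjustment, p was under 0.05 for 6 genes (12%, beside 14.6% of all genes), and groups did not overlap for 11 higher and 12 lower genes (46%, beside 48.8%). Among other receptors and ligands, Dll1 had the smallest p-value on the lower side (log2 fold change -0.17) and Dll3 on the higher side (0.24), with edgeR adjusted p-values of 0.527 and 0.655. Notch2 and Notch3 stood at -0.23 and 0.001, both with overlapping groups.

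Of 17 tested genes that process Notch proteins, 14 were above 0 in fold change and 3 below, where 9751 of all 19837 genes were above 0. Groups did not overlap for 7 higher and 3 lower, beside 24% and 24.8% of all genes, and edgeR called 0 of the 17. Psenen, a gamma-secretase subunit, had 21.7 and 27.1 CPM in untreated libraries and 32.2 and 31.1 CPM with CCCP (log2 fold change 0.38, edgeR adjusted p-value 0.352). Other genes of gamma-secretase, picked out after their values were seen, had log2 fold changes of 0.33 for Psen2, 0.13 for Ncstn, 0.31 for Aph1a and 0.068 for Aph1b. Of these 5 named genes, Psenen included, Aph1b was the one whose groups overlapped. With the length trend removed, the 5 lay between 0.11 and 0.30. On the lower side, Mib1, the ubiquitin ligase that activates Notch ligands, had 275 and 242 CPM in untreated libraries and 175 and 190 CPM with CCCP. In edgeR the log2 fold change was -0.50 (adjusted p-value 0.224), or -0.19 with the length trend removed. Adam10, the protease of the first cut, also picked out after its value was seen, stood at -0.32 (edgeR adjusted p-value 0.319).

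In the nuclear complex and its targets, 7 of 16 were higher and 9 lower, and edgeR called 0. Groups did not overlap for 2 higher and 5 lower, beside 24% and 24.8% of all genes. Maml2, a Mastermind co-activator, had the smallest unadjusted p-value on the lower side (log2 fold change -0.52, edgeR adjusted p-value 0.236). It was -0.060 with the length trend removed, on exons of 18984 bases. Snw1, a protein of the RBPJ complex, led the higher side at 0.21 (edgeR adjusted p-value 0.489). Rbpj itself stood at -0.077 and the targets Hes1, Heyl and Nrarp at 0.11, 0.077 and 0.019, values picked out after they were seen, all with overlapping groups. Among further targets, Gata2 and Myc stood at 0.08 and 0.043 and Hes5 and Ccnd1 at -0.089 and -0.25, also with overlap. Hes7, a barely counted target, had 0.26 and 0.37 CPM in untreated libraries and 0.041 and 0 CPM with CCCP. Its log2 fold change was -3.62 (edgeR adjusted p-value 0.264). Nrarp had its highest library in untreated replicate 2, as Dll4 did, at 85.3 CPM against 53.2 CPM in untreated replicate 1. Of 10 negative regulators, 4 were higher and 6 lower. Numb, an inhibitor of Notch, had the smallest p-value among the lower ones (-0.30, edgeR adjusted p-value 0.363) and Dtx2 among the higher ones (0.25, 0.412).

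Other arterial genes gave no call either, with 7 of 20 higher, 13 lower and a median log2 fold change of -0.033. Their groups did not overlap for 0 higher and 5 lower genes, beside 24% and 24.8% of all genes. Nrp1, a co-receptor for VEGF, led the lower side at -0.18 (edgeR adjusted p-value 0.488) and the netrin receptor Unc5b the higher side at 0.16 (0.581). Of 10 venous and lymphatic genes, 4 were higher and 6 lower, and groups did not overlap for 1 higher and 5 lower (48.8% of all genes). Before adjustment, p in edgeR was under 0.05 for 1 higher and 3 lower genes, beside 14.6% of all genes. Ephb4 led the higher side, as given above, and Prox1, a lymphatic and hepatic transcription factor, the lower side. Prox1 had 58.8 and 41.3 CPM in untreated libraries and 31.5 and 29.8 CPM with CCCP (log2 fold change -0.71, edgeR adjusted p-value 0.23). DESeq2 called 1 gene of this list, Lyve1, a lymphatic and macrophage receptor that is named here after its value was seen. Lyve1 had 6.97 and 6.50 CPM in untreated libraries and 1.96 and 3.56 CPM with CCCP (adjusted p-value 0.034 in DESeq2, 0.23 in edgeR). Hepatic transcripts were lower in the same libraries, and their part in the values of Prox1, Lyve1 and the rest of this list was not tested. Of 19 haemogenic endothelial genes tested, 7 were higher and 12 lower with a median of -0.041. Groups did not overlap for 1 of the 19, beside 48.8% of all genes. This gene was Smad6, at 0.24 (edgeR adjusted p-value 0.476). Kit, the stem cell factor receptor, led the lower side at -0.20 (0.53).

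The genes most like each of the 10 were sought among 10784 well counted genes, by the root mean square distance of log2 CPM centred over the 4 libraries. Among the 10 themselves, Notch1 and Efnb2 were nearest to each other, at 0.066 log2 units, and Notch1 was also nearest to Jag1, at 0.081. Dll4 was the nearest member of the group for both Hey1 (0.133) and Sox17 (0.136). Gja5 had no near neighbour in the group, with Notch4 closest at 0.31. Over all genes, Papola was nearest to Notch1, Sh2b3 to Notch4, Tipin to Dll4, Gtpbp10 to Jag1, Skp1 to Jag2, Mecr to Hey1, Tmem70 to Hey2, Msrb3 to Efnb2, Stxbp6 to Sox17 and Fabp7 to Gja5. With 4 libraries such likeness is common: 872 genes lay within 0.1 log2 units of Notch1 and 2574 of Jag2, against 33 of Sox17 and 1 of Gja5.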

How the data were processed

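Poly(A) RNA of 4 libraries (2 untreated, 2 CCCP) was sequenced from a directional kit, per the labels' protocols. The authors deposited unnormalised read counts for each gene, which featureCounts 2.0.3 assigned to the mm10 RefSeq annotation, per the file headers. Per the same headers exons were summed by gene, no strand option was set and read pairs were not counted as fragments, so that both reads of a pair can count and counting error is understated. Multi-mapping reads and reads in more than 1 gene were left out, since no option for them was set. HISAT2, SAMtools, FastQC and Subread are named in the submitters' processing notes. Groups come from the sample titles. Exon lengths, another deposited value, were recomputed on the chromosome alone where a gene also lies on alternate contigs.

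Counts of 49997 genes were tested with edgeR 4.0.16 in R 4.3.3 (glmQLFit, glmQLFTest, TMM scaling, filterByExpr with minimum count 10 and minimum total 15, group as the sole term), two-sided, with Benjamini-Hochberg adjustment over 19837 genes and a threshold of 0.05. Standard errors are the fold change divided by the square root of F. CPM use TMM-scaled library sizes. A count of 3, the floor of detection, is 0.0599 to 0.0827 CPM. DESeq2 1.42.0, other scalings, no filter, a replicate block, loess removal (span 0.5) of the trend with exon length or GC content, and each library left out were alternatives. The fits were tried on simulated data with planted changes far larger than those of the 10 genes and less spread than in these libraries. That trial does not show whether changes of the size seen here would be found. The 10 genes, the lists and the tests were chosen with earlier results of these data known. From each list the text names the gene with the smallest p-value in each direction, and for each of the 10 genes the most alike gene with a mean of at least 10 CPM. The replicates are separate samples in the labels, which do not say whether they are separate litters or cultures, so p-values measure only the spread between these libraries.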

Additional observations from a re-analysis of the deposited data

How the results depend on the processing

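No gene of the 10 was called under any of the 13 alternatives. Over all genes, where edgeR called 0 with all 4 libraries, the count was 1107 without the filter (32261 genes tested), 594 in DESeq2, and 1 to 34 with 1 library left out (1 without untreated replicate 1, 34 without untreated replicate 2, 1 without CCCP replicate 1 and 22 without CCCP replicate 2). The number of the 10 genes whose groups did not overlap, 5 in the main analysis, was 1 with the length trend removed (45.6% of all genes) and 5 to 9 with 1 library left out: 9 without untreated replicate 1 (73.9% of all genes), 9 without untreated replicate 2 (80.9%), 7 without CCCP replicate 1 (74.6%) and 5 without CCCP replicate 2 (68%). The count of genes without overlap was 4 with no scaling beyond the total count (48.3% of all genes). With the GC trend removed it was also 4 (45.1%). Same-numbered libraries deviated together (correlation 0.36 over 19837 genes), but the meaning of the numbers is not in the labels. With a replicate block edgeR called 2118 genes (754 higher, 1364 lower), 10.7% of those tested, and with the block plus removal of the length trend 2009 (1166 higher, 843 lower), 10.1%. Both called 0 of the 10, with 0.0854 the smallest adjusted p-value, for Jag1 in edgeR with the replicate block.

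Of 130 fold changes recomputed for the 10 genes, 107 kept their sign and 23 did not, while Hey2 kept its sign in all 13 alternatives. With the length trend removed the log2 fold change was 0.068 for Notch1, 0.19 for Notch4, 0.024 for Jag1, 0.18 for Efnb2 and 0.038 for Sox17, and with the replicate block as well 0.070, 0.21, 0.042, 0.19 and 0.11. Notch4, at -0.003, was 0.002 with DESeq2's size factors in edgeR, 0.002 in DESeq2, 0.011 without the filter and 0.004 with the replicate block. Without 1 library in turn, the log2 fold change ran from -0.13 to 0.16 for Notch4, -0.33 to 0.32 for Dll4, -0.085 to 0.36 for Hey1, -0.48 to 0.47 for Sox17 and -0.70 to 0.12 for Gja5. Values that changed sign were 0.028 for Notch4 and -0.074 for Hey1 without CCCP replicate 2, and 0.071 for Sox17 without CCCP replicate 1. Removal of a trend with GC content, added after the data had been seen, put Jag2 at -0.028 and Notch1 at -0.33. The cause of these sign changes was not tested. Where 1 library was left, it was assumed to vary like the other group.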

Other observations

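Markers of cell types other than endothelium gave these values beside the 10 genes. Hepatic genes were lower with CCCP for all 9 tested, with a median log2 fold change of -4.52, and DESeq2 called 6 of them while edgeR called 0. Ttr, a plasma carrier protein, had 16.2 and 8.16 CPM in untreated libraries and 0.824 and 1.05 CPM with CCCP. Erythroid genes had a median of 0.32 over 10 genes, with Hba-a1 at 0.49 and Epor at -0.58. Leukocyte genes had a median of 0.15, in which C1qa, a macrophage gene, stood at 0.71 and Ptprc at -0.96, the latter called by DESeq2 (adjusted p-value 0.0459) and not by edgeR (0.216). Smooth muscle and pericyte genes, the cells next to aortic endothelium, had a median of 0.21 and summed to 454 and 353 CPM without CCCP and to 450 and 506 CPM with it, with Cnn1 at 1.02 (1.74 to 5.46 CPM over the 4 libraries) and Rgs5 at -0.27. Mesenchymal genes had a median of -0.16, with Twist1 at 0.42 and Lum at -0.46. Sox10, a neural crest factor, had 31.5 and 39.5 CPM in untreated libraries and 53.9 and 64.3 CPM with CCCP, which is 0.74 log2 units higher (adjusted p-value 0.195 in edgeR, 0.0159 in DESeq2). Elavl4, a neuronal gene, stood at -0.40. Mesonephric and gonadal genes had a median of 0.063, with Cdh16 at 0.84 and Lhx1 at -0.28, and skeletal muscle genes a median of 0.20, with Des at 0.22 and Myf5 at -0.52. None of these genes was called by edgeR.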
